A study of Rattus norvegicus with 16 samples.

Results

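miR-218 is a microRNA (miRNA, a short RNA that pairs with messenger RNAs and represses them) encoded inside the genes of the Slit axon guidance proteins. Its members here are the rows of the deposited miRNA count tables named miR-218a or miR-218b with any locus or arm suffix: rno-miR-218a-5p (the prefix stands for rat and is left out below), miR-218a-1-3p, miR-218a-2-3p and miR-218b, 4 of the 722 rat miRNAs listed. Of these, 3 passed the filter on low counts and were tested among 639 miRNAs. miR-218b did not pass and is described by its reads.

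Small RNA was sequenced from high responder amygdala, low responder amygdala, high responder dorsal raphe and low responder dorsal raphe, with 4 libraries in each group and 16 in all. High and low responders are rat lines named for their locomotor response to a new environment. All rats were 60 days old, and the labels give no treatment. The amygdala takes part in fear and emotion, and the dorsal raphe holds serotonin neurons that project to the forebrain. Whether each sample is a different rat is not stated in the labels, and the p-values rest on the variation among the samples, which may be technical.

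Slit proteins are secreted ligands that repel growing axons through Robo receptors. The miR-218 hairpins lie in introns of Slit2 and Slit3, and the main product, the 5p arm, is the same from both. In mouse, miR-218 is abundant in motor neurons and is needed for their function, and it represses Dcc, the netrin receptor, in neurons of the prefrontal cortex. In human cells it represses Robo1.

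The mature sequences explain which rows can be assigned to which gene, and are printed 5′ to 3′ from RefSeq (build GRCr8), with the seed, bases 2 to 8, in capitals. All 4 rows were matched by name.
miR-218a-5p: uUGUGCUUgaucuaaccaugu
miR-218a-1-3p: aAACAUGGuuccgucaagcac
miR-218a-2-3p: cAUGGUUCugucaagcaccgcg
miR-218b: cAUGGUUAgaucaagcacaa
No other mature miRNA among the 693 in the RefSeq table shares any of these 4 seeds. The 2 hairpins follow, with the mature arms in capitals. Mir218-1 lies at chr14:66922348-66922457 on the minus strand, within the span of Slit2, and Mir218-2 at chr10:20572523-20572632 on the plus strand, within the span of Slit3.
Mir218-1: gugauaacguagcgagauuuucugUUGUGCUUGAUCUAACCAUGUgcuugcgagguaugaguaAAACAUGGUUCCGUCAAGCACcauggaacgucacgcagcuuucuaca
Mir218-2: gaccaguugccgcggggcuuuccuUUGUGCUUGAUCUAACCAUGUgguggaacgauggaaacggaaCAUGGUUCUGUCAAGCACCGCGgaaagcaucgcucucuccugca

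The 5p arm is identical in both hairpins, so its reads cannot be divided between Slit2 and Slit3. The 3p arms differ. They share a stretch of 18 bases with 1 substitution, C12U, counted from 1 at the 5′ end of miR-218a-1-3p with the base of miR-218a-2-3p last. The 3p rows therefore count the 3p arms of the loci separately, as far as the submitters' mapping kept reads with that substitution apart. miR-218b lies at chr14:66922414-66922433 on the plus strand, opposite the 5p arm of Mir218-1, and its 20 bases are the exact reverse complement of bases 1 to 20 of miR-218a-5p.

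miR-218a-5p was one of the most abundant miRNAs, and its level was higher in amygdala than in dorsal raphe. It held 2.27% to 3.02% of the unscaled counts of the 8 amygdala libraries, against 0.478% to 2.18% in the 8 dorsal raphe libraries. Its rank among the 722 miRNAs was 5 to 12 in amygdala libraries and 11 to 32 in dorsal raphe libraries. The library totals ran from 1741167 to 8134915 counts.

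Levels below are in CPM, counts set to a common library size, after scaling by TMM (trimmed mean of M values). miR-218a-5p had 21264, 24080, 27757 and 30850.5 CPM in high responder amygdala replicates 1 to 4, and 19480, 21888, 30910 and 30059 CPM in low responder amygdala. In high responder dorsal raphe it had 14791, 18031, 17012 and 18783 CPM, and in low responder dorsal raphe 13341, 17017, 21865 and 8029 CPM. In high responders the regions did not overlap, which held with amygdala higher for 11.1% of all miRNAs tested, while low responder dorsal raphe replicate 3 lay above the lowest low responder amygdala library.

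The means were 25988 ± 4193 CPM in high responder amygdala, 25584 ± 5754 in low responder amygdala, 17154 ± 1735 in high responder dorsal raphe and 15063 ± 5846 in low responder dorsal raphe (SD, n = 4 each). The libraries of the 2 amygdala groups overlapped, and so did those of the 2 dorsal raphe groups.

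**Figure D1:**
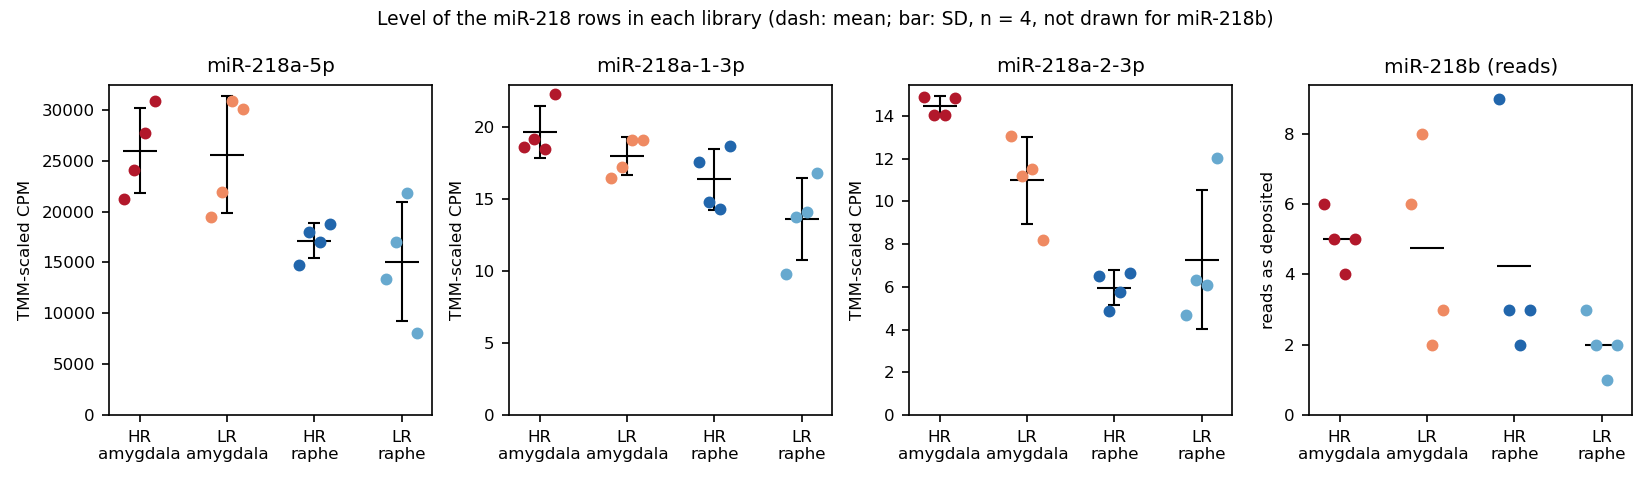
Level of each miR-218 row by library, in TMM-scaled CPM for the first 3 panels and in reads as deposited for miR-218b; points are libraries in the order of their replicate numbers, dashes are group means and bars are SD (n = 4; none drawn for miR-218b). miR-218a-5p and miR-218a-2-3p are higher in amygdala, and low responder (LR) raphe replicate 4 is the lowest of all libraries for miR-218a-5p, at 8029 CPM. After this scaling it is the highest raphe library for miR-218a-2-3p, at 12.0 CPM, though its unscaled share is below that of high responder (HR) raphe replicate 1.

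Averaged over the lines, miR-218a-5p was 1.60-fold higher in amygdala (log2 fold change 0.68, SE 0.20, 95% interval 0.27 to 1.10). It passed edgeR's quasi-likelihood test with Benjamini-Hochberg adjustment over all 639 miRNAs (adjusted p = 0.0172). Across all miRNAs tested, 24.3% were called in this comparison and 9.39% were called higher (60 higher and 95 lower; DESeq2 called 100 higher and 103 lower). The log2 fold change of miR-218a-5p stood at place 158 from the highest of all miRNAs tested. With 1 library left out at a time the log2 fold change ran from 0.61 to 0.84, and the call held in all 16 such fits.

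Averaged over the lines, the arm made from the Slit3 locus alone, miR-218a-2-3p, had the largest log2 fold change of the tested miR-218 rows. In low responders its value, 0.67, was below the 0.76 of miR-218a-5p. In exact permutation tests its log2 ratio to miR-218a-5p did not differ between the regions past the threshold (0.25, adjusted p = 0.643). Its log2 ratio to miR-218a-1-3p did not either (0.62, exact permutation adjusted p = 0.0653). It had 14.9, 14.0, 14.0 and 14.8 CPM in high responder amygdala and 13.1, 11.2, 11.5 and 8.19 CPM in low responder amygdala. In high responder dorsal raphe it had 6.53, 4.88, 5.77 and 6.67 CPM, and in low responder dorsal raphe 4.68, 6.33, 6.07 and 12.0 CPM. After TMM scaling low responder dorsal raphe replicate 4 lay within the amygdala range. As an unscaled share of the library it had 0.000716%, below the lowest amygdala library at 0.000762%. High responder dorsal raphe replicate 1 had 0.000827% by that measure.

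miR-218a-2-3p averaged 12.7 ± 2.30 CPM in amygdala and 6.62 ± 2.30 CPM in dorsal raphe (SD, n = 8 each). In edgeR this was a 1.96-fold rise, with a log2 fold change of 0.97 (SE 0.21, adjusted p = 0.00204). The row holds few reads, 28 to 85 in an amygdala library and 15 to 35 in a dorsal raphe library. Without low responder dorsal raphe replicate 4 the log2 fold change was 1.14 (adjusted p = 8.60e-05).

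The arm made from the Slit2 locus alone, miR-218a-1-3p, did not pass. It had 18.6, 19.2, 18.5 and 22.4 CPM in high responder amygdala and 16.5, 17.3, 19.1 and 19.2 CPM in low responder amygdala. High responder dorsal raphe had 17.6, 14.8, 14.3 and 18.7 CPM, and low responder dorsal raphe 9.84, 13.8, 14.1 and 16.8 CPM. The regions overlapped, since high responder dorsal raphe replicates 1 and 4 and low responder dorsal raphe replicate 4 lay within the amygdala range. As an unscaled share of the library, low responder dorsal raphe replicate 4 had 0.00100%, below the lowest amygdala library at 0.00161%. High responder dorsal raphe replicate 1 had 0.00223% by that measure, above the highest amygdala library at 0.00203%. Replicate 4 of that group had 0.00197%, so the regions overlapped in unscaled shares too.

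The means of miR-218a-1-3p were 18.8 ± 1.72 CPM in amygdala and 15.01 ± 2.77 CPM in dorsal raphe (SD, n = 8 each). edgeR gave a log2 fold change of 0.34 (SE 0.16, 95% interval 0.0033 to 0.69, adjusted p = 0.125). DESeq2 called it higher (log2 fold change 0.44, adjusted p = 0.0191). edgeR called it without low responder dorsal raphe replicate 4 (0.43, adjusted p = 0.0411) or without high responder amygdala replicate 1 (0.49, adjusted p = 0.0413), so whether it passed rested on these libraries.

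Within each line the tests have 4 libraries a side. In high responders miR-218a-2-3p was 2.43-fold higher in amygdala than in dorsal raphe (log2 fold change 1.28, SE 0.29, edgeR adjusted p = 0.00634), where 13.1% of all miRNAs were called and 6.57% called higher (42 higher and 42 lower; 40 higher and 71 lower with library totals as scaling). miR-218a-5p had a log2 fold change of 0.60 (SE 0.28, adjusted p = 0.161) and miR-218a-1-3p of 0.27 (SE 0.23, adjusted p = 0.429), and neither passed. In low responders no miR-218 row passed in edgeR, where 14.1% of all miRNAs were called and 3.6% called higher (23 higher and 67 lower; 34 and 54 with library totals, 40 and 68 in DESeq2). The log2 fold changes there were 0.76 for miR-218a-5p (SE 0.28, adjusted p = 0.0763), 0.67 for miR-218a-2-3p (SE 0.29, adjusted p = 0.150) and 0.42 for miR-218a-1-3p (SE 0.23, adjusted p = 0.237). DESeq2 called miR-218a-5p (0.88, adjusted p = 0.0146) and miR-218a-2-3p (0.86, adjusted p = 0.0257) in low responders. Without low responder dorsal raphe replicate 4 edgeR called miR-218a-2-3p there (1.05, adjusted p = 0.00846), and without low responder dorsal raphe replicate 3 it called miR-218a-5p (1.10, adjusted p = 0.0275). Without high responder amygdala replicate 1 edgeR called both in low responders (0.96, adjusted p = 0.0330, for miR-218a-5p; 0.90, adjusted p = 0.0395, for miR-218a-2-3p).

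**Figure D2:**
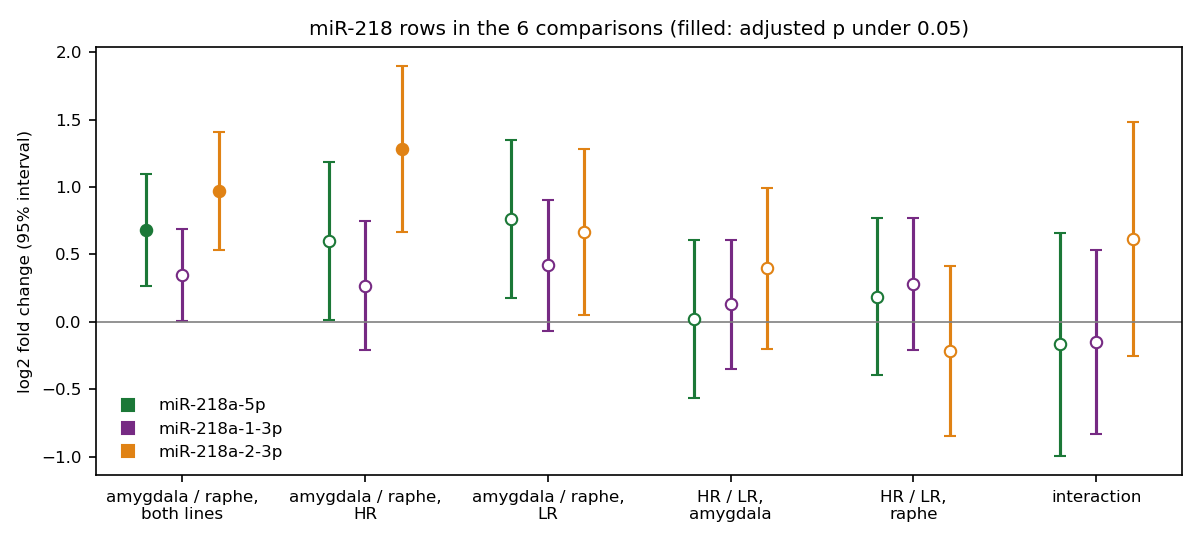
Log2 fold change of the 3 tested miR-218 rows in 6 comparisons (vertical axis), with 95% intervals from edgeR's quasi-likelihood fit; filled points have an adjusted p under 0.05. The filled points are miR-218a-5p and miR-218a-2-3p in amygdala over raphe averaged over the lines (0.68 and 0.97), and miR-218a-2-3p in high responders (1.28).

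Between the lines no miR-218 row passed in either region, and edgeR called 0 of the 639 miRNAs in either region. In amygdala the log2 fold change of high over low responders was 0.02 for miR-218a-5p (95% interval -0.56 to 0.61, adjusted p = 0.973; -0.06 with library totals as scaling), 0.13 for miR-218a-1-3p (-0.35 to 0.61, adjusted p = 0.827) and 0.40 for miR-218a-2-3p (-0.20 to 0.99, adjusted p = 0.709). The 4 high responder libraries of miR-218a-2-3p all lay above the 4 low responder ones, as they did for 5.01% of all miRNAs. Unadjusted, 65 of all miRNAs had a p under 0.05 in amygdala, and DESeq2 called 20.

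In dorsal raphe the log2 fold change of high over low responders was 0.19 for miR-218a-5p (95% interval -0.40 to 0.77, adjusted p = 0.972), 0.28 for miR-218a-1-3p (-0.21 to 0.77, adjusted p = 0.837) and -0.22 for miR-218a-2-3p (-0.85 to 0.41, adjusted p = 0.991). The last of these was 0.20 without low responder dorsal raphe replicate 4 and 0.07 with library totals as scaling. Unadjusted, 70 miRNAs had a p under 0.05 in dorsal raphe, and DESeq2 called 0. The intervals leave room for differences between the lines of about the size of the region difference. The interaction of line and region was -0.16 for miR-218a-5p (SE 0.39), -0.15 for miR-218a-1-3p (SE 0.32) and 0.61 for miR-218a-2-3p (SE 0.41), with adjusted p of 0.931, 0.931 and 0.583. edgeR called 0 miRNAs for the interaction and DESeq2 called 12; in edgeR 81 had an unadjusted p under 0.05. Without low responder dorsal raphe replicate 4 the interaction was 0.17 for miR-218a-2-3p and -0.42 for miR-218a-1-3p, and without low responder dorsal raphe replicate 3 it was -0.52 for miR-218a-5p and -0.30 for miR-218a-1-3p.

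Ratios of reads within 1 library do not depend on the scaling between libraries. The share of the Slit3-locus arm among all 3p reads, miR-218a-2-3p over the sum of both 3p arms, compares the reads of the 3p arms of the loci. The output of the loci themselves was not measured. It was 44.4%, 42.2%, 43.1% and 39.9% in high responder amygdala and 44.2%, 39.4%, 37.6% and 29.95% in low responder amygdala. High responder dorsal raphe had 27.0%, 24.8%, 28.7% and 26.3%, and low responder dorsal raphe 32.3%, 31.5%, 30.1% and 41.7%. High responder libraries fell into separate ranges by region, and low responder libraries overlapped.

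The group means of that share were 42.4% ± 1.93 in high responder amygdala, 37.8% ± 5.91 in low responder amygdala, 26.7% ± 1.63 in high responder dorsal raphe and 33.9% ± 5.27 in low responder dorsal raphe (SD, n = 4 each). A library had 36 to 207 reads of both 3p arms together, and the exact (Clopper-Pearson) 95% intervals of single libraries are wide. They run from 31.9% to 57.5% in high responder amygdala replicate 1 and from 25.5% to 59.2% in low responder dorsal raphe replicate 4, and cover counting error only.

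**Figure D3:**
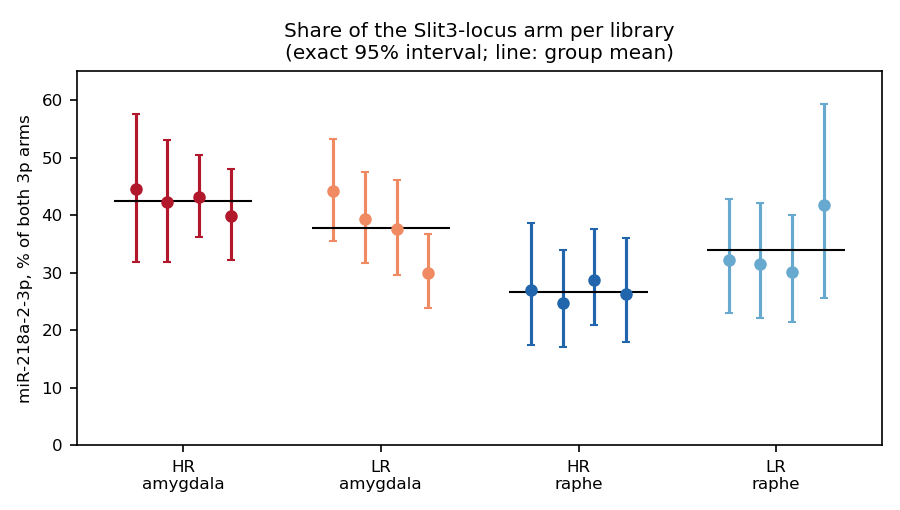
Share of miR-218a-2-3p among the reads of both 3p arms in each library (vertical axis, percent), with exact 95% intervals and group means as lines. The 4 high responder (HR) amygdala libraries sit between 39.9% and 44.4% and the 4 high responder raphe libraries between 24.8% and 28.7%, while the low responder (LR) regions overlap.

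The log2 ratio of miR-218a-2-3p to miR-218a-1-3p was 0.62 higher in amygdala (mean -0.58 ± 0.30) than in dorsal raphe (-1.20 ± 0.35, SD, n = 8 each; exact two-sided permutation p = 0.00435). Adjusted over the 15 tests of 3 ratios and 5 contrasts it did not pass (adjusted p = 0.0653). It passed without low responder dorsal raphe replicate 4 (0.72, exact permutation adjusted p = 0.0117) and without low responder amygdala replicate 4 (0.71, exact permutation adjusted p = 0.0163).

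In high responders the ratio was 2.01-fold higher in amygdala than in dorsal raphe, with a log2 difference of 1.00 (exact permutation p = 0.0286, the smallest that 4 against 4 allows; adjusted p = 0.107). In low responders the log2 difference was 0.24 (exact permutation p = 0.400, adjusted p = 0.643). In dorsal raphe the log2 ratio was lower in high responders (-1.44 ± 0.12) than in low responders (-0.96 ± 0.33, SD, n = 4 each), with no overlap (exact permutation p = 0.0286, adjusted p = 0.107). In amygdala it was -0.44 ± 0.11 in high responders and -0.72 ± 0.37 in low responders (SD, n = 4 each; exact permutation p = 0.171, adjusted p = 0.367).

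The region difference of this ratio was larger in high than in low responders by 0.77 on the log2 scale. An exact test that permuted the line labels within each region (4900 arrangements, two-sided) gave p = 0.00449, and 0.0180 after adjustment over 4 ratios. With labels exchanged within same-numbered amygdala libraries and freely in dorsal raphe (1120 arrangements) the exact permutation adjusted p was 0.00714, and with labels exchanged within same-numbered libraries in both regions 0.0313. In each of the 4 same-numbered amygdala pairs the Slit3-locus share was higher in the high responder library, from 44.4% against 44.2% in replicate 1 to 39.9% against 29.95% in replicate 4. Whether the numbers pair the libraries was not tested. The other 3 ratios had adjusted p of 0.251 to 0.865 in this exact permutation test, which was added after the counts had been seen. For the ratio of the 3p arms the exact permutation adjusted p was 0.0294 without low responder dorsal raphe replicate 4 and 0.0506 without high responder amygdala replicate 1. Without both libraries the difference was 0.57 (exact permutation adjusted p = 0.0914). In high responders the SD of this log2 ratio was 0.11 in amygdala and 0.12 in dorsal raphe, against 0.37 and 0.33 in low responders. The exact 95% interval of each high responder library's share covered the shares of all 4 libraries of its group, so their spread was no wider than counting error. Exchanging line labels takes the spreads of the lines as alike, which limits these p-values.

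The 5p arm far outnumbered the 3p arms everywhere. Per 3p read there were 634, 724, 852 and 830 reads of miR-218a-5p in high responder amygdala and 659, 769, 1011 and 1100 in low responder amygdala. There were 613, 915, 846 and 739 in high responder dorsal raphe and 919, 846, 1085 and 278 in low responder dorsal raphe. The mean was 822 ± 164 in amygdala and 780 ± 245 in dorsal raphe (SD, n = 8 each), and the ranges overlapped. Low responder dorsal raphe replicate 4 stood below every other library.

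Neither 3p arm differed from miR-218a-5p between the regions past the threshold. The log2 ratio to miR-218a-5p differed between amygdala and dorsal raphe by -0.37 for miR-218a-1-3p (exact permutation p = 0.0699, adjusted p = 0.210) and by 0.25 for miR-218a-2-3p (exact permutation p = 0.474, adjusted p = 0.643). Without low responder dorsal raphe replicate 4 these differences were -0.20 (exact permutation adjusted p = 0.238) and 0.52 (exact permutation p = 0.0202, adjusted p = 0.107). For miR-218a-2-3p in high responders the log2 ratio was 0.69 higher in amygdala, without overlap (exact permutation p = 0.0286, adjusted p = 0.107). Over the remaining contrasts of these ratios the lowest adjusted p was 0.286 by the exact permutation test.

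The ratio of miR-218a-5p to miR-124-3p, a miRNA of neurons, was higher in amygdala, and it moves with the level of either. High responder amygdala had 8.13, 5.60, 2.68 and 2.87 reads of miR-218a-5p per read of miR-124-3p, and low responder amygdala 2.64, 2.09, 2.72 and 2.02. High responder dorsal raphe had 1.56, 1.45, 0.839 and 1.74, and low responder dorsal raphe 1.01, 1.23, 1.78 and 1.56. High responder amygdala replicates 1 and 2, with the highest ratios, had 2616 and 4298 CPM of miR-124-3p. The remaining amygdala libraries had 7378 to 14892 CPM. The ratio of every amygdala library lay above that of every dorsal raphe library, low responder dorsal raphe replicate 4 included.

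This ratio was 2.35-fold higher in amygdala (log2 difference 1.23, exact permutation p = 0.000155, the smallest that 8 against 8 allows; adjusted p = 0.000777 over 5 contrasts). Within high responders it was 3.21-fold higher and within low responders 1.72-fold higher (exact permutation p = 0.0286 and adjusted p = 0.0476 in both). Without any 1 of the low responder amygdala libraries, or without high responder dorsal raphe replicate 3, neither passed (adjusted p of 0.0714 to 0.0952 in the exact permutation test). The high responder difference without a low responder amygdala library kept its value of 1.68 and its p, since it uses none of these libraries, and lost its call through the adjustment over 5 contrasts. miR-124-3p itself had a log2 fold change of -0.47 between the regions (edgeR adjusted p = 0.256). Between the lines the log2 ratio differed by 0.88 in amygdala (exact permutation p = 0.0571, adjusted p = 0.0714; 1.11 and adjusted p = 0.0357 without high responder amygdala replicate 3) and by -0.02 in dorsal raphe (exact permutation p = 0.914, adjusted p = 0.914).

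**Figure D4:**
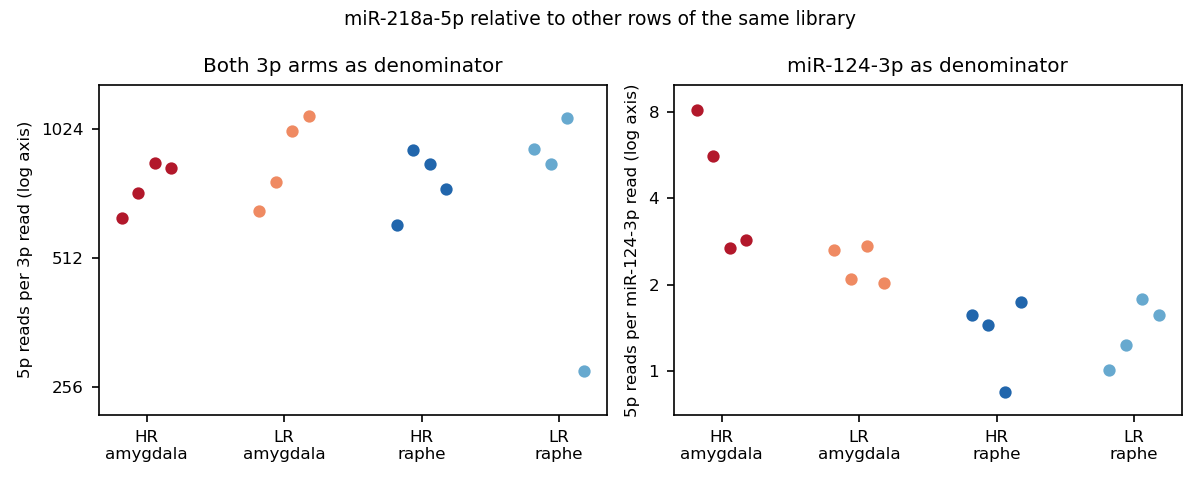
Reads of miR-218a-5p per read of both 3p arms (left) and per read of miR-124-3p (right) in each library, on log axes; points are libraries in the order of their replicate numbers. The left panel shows overlapping groups with low responder (LR) raphe replicate 4 at 278, and in the right panel the amygdala libraries (2.02 to 8.13) all lie above the raphe libraries (0.839 to 1.78; HR, high responder).

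miR-218b was barely read. It had 6, 5, 4 and 5 reads in high responder amygdala, 6, 8, 2 and 3 in low responder amygdala, 9, 3, 2 and 3 in high responder dorsal raphe and 3, 2, 1 and 2 in low responder dorsal raphe. That is 64 reads in all, against 1582409 of miR-218a-5p. As unscaled CPM it had 1.04 (Poisson 95% interval 0.737 to 1.42) in the pooled amygdala libraries and 0.723 (0.468 to 1.07) in the pooled dorsal raphe libraries. The intervals overlap, cover counting error only, and do not show a difference at this depth. A count of 3, taken as the floor of detection, was exceeded in 7 of the 16 libraries.

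Low responder dorsal raphe replicate 4 stood apart in miR-218 and in other miRNAs. Its TMM factor was 0.596, against 0.871 to 1.27 in the other libraries, and it held 10024 reads of miR-218a-5p. The miRNAs of the Hox clusters, which mark hindbrain and spinal cord, summed to 3930 CPM there, against 369 to 470 CPM in the other 7 dorsal raphe libraries. Muscle miRNAs summed to 5089 CPM against 1349 to 1823, oligodendrocyte miRNAs to 41807 against 12306 to 19233 and vascular miRNAs to 119378 against 43992 to 61016. Neuron-enriched miRNAs summed to 290055 CPM against 156816 to 205409, and choroid plexus miRNAs to 3827 against 1535 to 2909. Microglia and leukocyte miRNAs summed to 1286 CPM, within the 864 to 1372 CPM of the other 7, and erythrocyte miRNAs to 85.7 against 141 to 245. miR-124-3p, a member of the neuron-enriched list, was at 5137 CPM against 9477 to 20274. A TMM factor below 1 raises every CPM of a library, which enters all these sums. The part of these miRNAs in the level of miR-218 was not tested. Without this library miR-218a-5p remained higher in amygdala, with a log2 fold change of 0.61 (edgeR adjusted p = 0.00779).

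Over all 16 libraries, the miRNA whose level went most closely with that of miR-218a-5p among 406 with a mean of at least 10 CPM was miR-132-5p, from the same hairpin as the activity-induced neuronal miR-132-3p (Pearson r = 0.954 on log2 CPM, Spearman rho = 0.950). miR-132-5p ran from 1517 to 3839 CPM in amygdala and from 311 to 1277 CPM in dorsal raphe, lowest in low responder dorsal raphe replicate 4. Without that library r was 0.918, and for deviations from group means it was 0.937. miR-7a-2-3p (0.870), miR-221-3p (0.815), miR-139-5p (0.771), from the Pde2a gene, and miR-137-3p (0.749), a neuronal miRNA, followed. Of these, all but miR-137-3p were called higher in amygdala, as were 9.39% of all miRNAs tested. They were picked by their correlation with miR-218a-5p, which was itself higher in amygdala, so these calls are no separate result.

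The lowest correlations were those of miR-217-5p (r = -0.892), miR-10b-5p (-0.880) and miR-10a-5p (-0.871), the last 2 from Hox clusters. miR-217-5p ran from 4.23 to 28.7 CPM in amygdala and from 31.3 to 135 CPM in dorsal raphe. For deviations from group means, miR-425-5p (0.959), miR-132-5p, miR-24-1-5p (0.885), miR-499-5p (0.875) and miR-301b-3p (0.867) had the highest values. Except for miR-132-5p, their correlations of levels, region difference included, were -0.18 to 0.42 over all 16 libraries. Without low responder dorsal raphe replicate 4 these were -0.42 to 0.10. Deviations from group means were not correlated again without that library. Of its own 3p arms, miR-218a-1-3p had r = 0.535 over all 16 libraries, 0.748 without low responder dorsal raphe replicate 4 and -0.0098 for deviations from group means. The other arm, miR-218a-2-3p, averaged 9.67 CPM, under the minimum of 10 CPM, and was not compared. The 16 points share the region difference and the TMM scaling, so these values describe the libraries and carry no test.

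**Figure D5:**
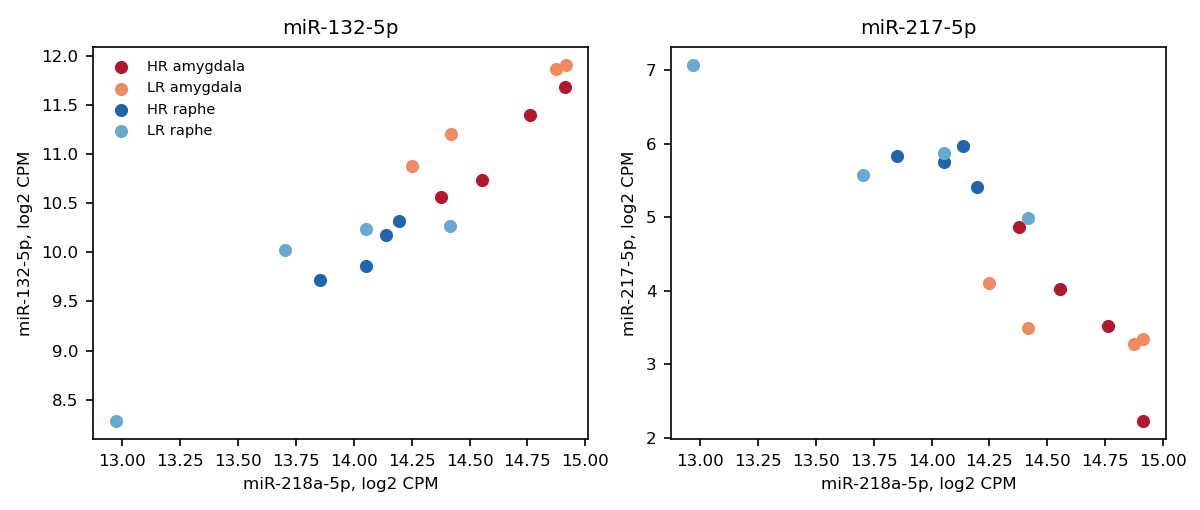
Level of miR-132-5p (left) and miR-217-5p (right) against that of miR-218a-5p, in log2 CPM, with 1 point per library coloured by group (HR, high responder; LR, low responder). miR-132-5p goes up with miR-218a-5p (r = 0.954) and miR-217-5p goes down (r = -0.892), and low responder raphe replicate 4 is the point at the far left of both panels.

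Other miRNA groups show how the regions and samples differ around miR-218. Of 14 neuron-enriched miRNAs 3 were higher in amygdala and 3 lower (median log2 fold change 0.19). Over all 639 miRNAs 9.39% were higher and 14.9% lower, with a median of -0.08, against which the counts of this and the next lists stand. The neuron-enriched miRNAs called higher were miR-128-3p (2.23), miR-132-3p (1.73) and miR-212-3p (1.16), and those called lower were miR-135a-5p (-1.95), miR-134-5p (-1.41) and miR-433-3p (-0.77). Their summed level was 250942 to 275971 CPM in high responder amygdala, 220457 to 286959 in low responder amygdala, 161056 to 205409 in high responder dorsal raphe and 156816 to 290055 in low responder dorsal raphe, and none was at 0 in any library. In whole tissue, fewer cells of a type and less of a miRNA per cell cannot be told apart. Their part in the region difference of miR-218a-5p was not tested.

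Of 31 tested miRNAs that, like miR-218, lie in introns of protein-coding genes, 9 were higher and 6 lower (median -0.18). Those of lowest p were miR-139-5p (2.72) and miR-128-3p among the higher ones, and miR-330-5p (-0.80) and miR-338-3p (-1.18) among the lower ones. Hox cluster miRNAs, of which 3 of 6 passed the filter, were lower for miR-10b-5p (-4.30) and miR-10a-5p (-2.31), and the third, miR-196a-5p, had 0.51 (edgeR adjusted p = 0.374). The list summed to 27.3 to 161 CPM in amygdala. miR-196b-5p, miR-196c-5p and miR-615 were at 0 in at least 1 library.

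Of 5 muscle miRNAs all 5 were lower in amygdala (median -2.35; miR-133a-3p -2.93, miR-1-3p -2.70). Of 7 oligodendrocyte miRNAs 3 were lower (median -0.67; miR-338-3p -1.18, miR-219-5p -0.87). Of 4 choroid plexus miRNAs 3 were higher (median 1.62; miR-204-5p 1.79, miR-211-5p 1.68), and miR-211-3p was at 0 in at least 1 library. The choroid plexus miRNAs summed to 8269 to 17106 CPM in high responder amygdala and 999 to 9229 CPM in low responder amygdala. In dorsal raphe they summed to 1535 to 2909 CPM in high responders and 2065 to 3827 CPM in low responders. Of 4 microglia and leukocyte miRNAs 1 was lower, miR-150-5p (-0.71), while miR-142-3p had -0.49. None of the 6 vascular miRNAs (median -0.60; miR-126a-3p -0.63, miR-126a-5p -0.70) or the 3 erythrocyte miRNAs (median 0.23; miR-144-5p 0.23, miR-451-5p 0.27) passed.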

How the data were processed

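Each library has a deposited table of whole-number counts for 722 mature miRNAs, taken without change. Tools in the submitters' processing notes are cutadapt 1.3.1, Bowtie2 (no version) and bedtools 2.14.2; per the labels' protocols RNA came from a Qiagen miRNeasy kit and libraries were size-selected. The build, the annotation and how multiply mapping reads were treated are matters not given in the sources used here.

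edgeR 4.0.16 (R 4.3.3) dropped 83 miRNAs of low count (filterByExpr, minimum count 10, minimum total 15). TMM-scaled counts of all 16 libraries were fitted with a mean per group and no block by the robust quasi-likelihood test. Benjamini-Hochberg adjustment ran over the 639 miRNAs tested (threshold 0.05). edgeR does not let p fall below that of a Poisson fit, which raised p for miR-218a-2-3p between the lines in dorsal raphe. log2 CPM used a prior count of 2. Ratios, with a pseudocount of 0.5 added to each count, were compared by exact permutation tests. Among 120 pairs of libraries chi-square over its degrees of freedom was at least 56.0, so none was a copy. The fit and the permutation code were tested on simulated data.

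The named miRNAs are the 4 rows, the 5 most and 3 least correlated with miR-218a-5p, the 5 most correlated within groups, and 2 of each list by lowest p; further called members of the neuron and intron lists, and miR-196a-5p, were named after their values were seen. The members and lists were chosen with earlier results of these data known. Of the listed names, 6 were not matched in the files. Alternatives were DESeq2 1.42.0, library totals as scaling, no filter, the replicate number as a block, each library left out, a pseudocount of 2, an exchange of labels within same-numbered libraries, and leaving out both low responder dorsal raphe replicate 4 (TMM factor 0.596) and high responder amygdala replicate 1 (lowest total, 1741167). Same-numbered libraries of high and low responder amygdala deviated together (correlations 0.69, 0.29, 0.21 and 0.51), and all 4 exceed a criterion of 0.1. Labels were therefore also exchanged within these numbers. Libraries of different numbers were not correlated, so whether the numbers pair the libraries was not tested. The meaning of the numbers is not stated in the labels. The remaining group pairs failed this criterion.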

Additional observations from a re-analysis of the deposited data

Results flagged for a closer look

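The region difference of the log2 ratio of miR-218a-2-3p to miR-218a-1-3p, the arms specific to Slit3 and Slit2, was 0.7692 larger in high than in low responders by the exact permutation of line labels (1.00 against 0.24; adjusted p = 0.0180). This test was added after the counts had been seen. Its exact permutation adjusted p was 0.0506 without high responder amygdala replicate 1. It was 0.0914 without both that library and low responder dorsal raphe replicate 4. The Slit3-locus share separated the regions in 4 of 4 high responder libraries of each region, while the low responder regions overlapped. edgeR's interaction did not pass for either arm alone (0.61 for miR-218a-2-3p, -0.15 for miR-218a-1-3p; 0.17 and -0.42 without low responder dorsal raphe replicate 4). Reads of both arms together numbered 36 to 207 in a library, and the spread among high responder libraries was no wider than counting error.

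miR-218b, which was left out of the tests for its low counts, had 64 reads over the 16 libraries and more than 3 in 7 of them. High responder dorsal raphe replicate 1 stood far above the other 3 of its group at 2.94 CPM (gap to range of 0.8312) with 9 reads, against 2 to 3 reads in the others. Dixon's criterion for 4 samples, a gap to range above 0.829, was met by this 1 library among 28 groups examined, where chance gives about 1 in 20 groups. Low responder dorsal raphe replicate 4, at 12.0 CPM of miR-218a-2-3p and 278 reads of miR-218a-5p per 3p read, did not meet it.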

How the results depend on the processing

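Values are log2 differences unless called counts. miR-218a-5p and miR-218a-2-3p were called higher in amygdala, averaged over the lines, under every alternative run. DESeq2 gave 0.44 for miR-218a-1-3p between the regions, and 0.88 for miR-218a-5p and 0.86 for miR-218a-2-3p in low responders, all called, and counts of 136 miRNAs called between regions in high responders, 20 between lines in amygdala and 12 for the interaction. Library totals as scaling gave 0.88 for miR-218a-2-3p in low responders (called), -0.0560 for miR-218a-5p between lines in amygdala, 0.0723 for miR-218a-2-3p between lines in dorsal raphe and 2 miRNAs called between lines in amygdala. With library totals the median of all miRNAs moved to -0.11 in high responders, against 0.08 with TMM, to 0.02 against -0.12 in low responders, to 0.14 against -0.06 between lines in dorsal raphe, and to -0.24 against 0.09 for the interaction. With DESeq2 it moved to 0.0025 in low responders. With no filter 1 miRNA was called for the interaction. A pseudocount of 2 turned the ratio of miR-218a-1-3p to miR-218a-5p between lines in dorsal raphe to -0.0187.

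Without both the raphe library of TMM factor 0.596 and the amygdala library of lowest total, a choice made after the data were seen, values were 0.60 for miR-218a-1-3p between regions, 0.82 for miR-218a-5p in high responders, and 0.80, 0.76 and 1.19 for miR-218a-5p, miR-218a-1-3p and miR-218a-2-3p in low responders, all called. The median of all miRNAs between regions then stood at 0.22, against -0.08 with all libraries. Counts were 138 between regions in high responders, 9 between lines in amygdala and 3 for the interaction. miR-218a-2-3p between lines in dorsal raphe was 0.15 and the interaction of miR-218a-5p 0.0186. The ratio of miR-218a-2-3p to miR-218a-1-3p was 0.69 between regions (called), with an interaction of 0.57 (not called). Signs turned for the ratios of miR-218a-5p to miR-124-3p (0.0503) and miR-218a-2-3p to miR-218a-5p (0.0688) between lines in dorsal raphe, for that of miR-218a-2-3p to miR-218a-5p between regions in low responders (0.37) and the interaction of miR-218a-1-3p to miR-218a-5p (-0.36). Causes were not tested.

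With the replicate number as a block, the region differences of the ratio to miR-124-3p were 1.68 in high and 0.78 in low responders, where 4 pairs cannot give p below 0.125. Over the 48 results fitted with the block in both regions it changed no other call, and it gave 0.68 for miR-218a-5p between regions.

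With 1 library left out, ranges between the regions were 0.31 to 0.50 for miR-218a-1-3p, and in low responders 0.67 to 1.10 for miR-218a-5p and 0.56 to 1.05 for miR-218a-2-3p. Between the lines they were -0.12 to 0.15 for miR-218a-5p in amygdala and -0.36 to 0.20 for miR-218a-2-3p in dorsal raphe. Counts called between regions ran from 61 to 128 in high responders (highest without high responder amygdala replicate 4) and from 47 to 94 in low responders (lowest without low responder amygdala replicate 3). Between lines in amygdala they ran from 0 to 2 and for the interaction from 0 to 1. The ratio to miR-124-3p ran from 1.38 to 1.91 in high responders, 0.64 to 0.91 in low responders, 0.58 to 1.11 between lines in amygdala and -0.16 to 0.21 between lines in dorsal raphe. The ratio of miR-218a-1-3p to miR-218a-5p ran from -0.19 to 0.39 between lines in dorsal raphe, with an interaction of -0.29 to 0.28. That of miR-218a-2-3p to miR-218a-5p ran from -0.45 to 0.37 between regions in low responders and from -0.75 to 0.0688 between lines in dorsal raphe. That of miR-218a-2-3p to miR-218a-1-3p ran from 0.57 to 0.72 between regions, with an interaction of 0.60 to 0.90. Few reads limit both 3p arms and miR-218b.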
